A study of Mus musculus with 23 samples.

Results

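The 10 genes described here encode or switch on the machinery that loads peptides onto MHC class II molecules. They are H2-Aa, H2-Ab1, H2-Eb1, Cd74, Ciita, H2-DMa, H2-DMb1, H2-DMb2, H2-Oa and H2-Ob, taken by name from the 53402 genes of the count table. All 10 were among the 19310 genes that passed the filter on low counts, with between 23 and 2623 counts in any library. They were followed in 23 bulk RNA libraries from mTECs, the epithelial cells of the thymus medulla, of C57BL/6 mice. Live EpCAM+ cells without CD45 or Ly51 were sorted by surface MHC class II into a high gate (mTEChi) and a low gate (mTEClo). The groups were 4 libraries of Aire KO mTEChi, 7 of WT mTEChi, 4 of Aire KO mTEClo and 8 of WT mTEClo. The KO libraries were all labelled male, 2 of 5 weeks and 2 of 6 weeks in each gate. WT mTEChi held 5 male and 2 female libraries, 2 of 4 weeks and 5 of 5 weeks. WT mTEClo held 5 male and 3 female libraries, 5 of 4 weeks and 3 of 5 weeks. The labels do not say how the Aire allele was made or whether libraries came from separate animals, so p-values measure the spread between these libraries, which may be technical. The comparisons ask how the class II route differs without Aire within each gate, and between the gates.

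MHC class II molecules are pairs of an alpha and a beta chain that show peptides to CD4 T cells, and mTECs use them to test developing T cells against self. The chains assemble on the invariant chain, Cd74, which is cut down to a fragment called CLIP that fills the groove. H2-DM (H2-DMa with H2-DMb1 or H2-DMb2) exchanges CLIP for other peptides, and H2-DO (H2-Oa with H2-Ob) holds H2-DM back. H2-Aa and H2-Ab1 encode the 2 chains of I-A. H2-Eb1 encodes the beta chain of I-E, whose alpha chain gene is not functional in C57BL/6. Ciita encodes the coactivator that class II promoters need, and binds them through factors that sit on their X and Y boxes, among them RFX and NF-Y.

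Of the 10 genes, 8 lie in the MHC on chromosome 17. In GRCm38 coordinates H2-Oa spans 34092340 to 34095234, H2-DMa 34119541 to 34139101, H2-DMb2 34143307 to 34151555, H2-DMb1 34153072 to 34160230 and H2-Ob 34238903 to 34254414. H2-Ab1 spans 34257689 to 34269419, H2-Aa 34282744 to 34287823 on the minus strand, and H2-Eb1 34305867 to 34316674. Ciita lies on chromosome 16 from 10480059 to 10528418, and Cd74 on neither of these chromosomes. Promoter windows of RefSeq (GRCm38.p6, 250 bases before to 50 after a start) were at hand for 7 of the 10 genes, 8 windows in all. Because the genes are read through shared promoter boxes, 60 bases are printed 5′ to 3′ on the strand of each gene, with GCAAC, letters at the core of the X box, and ATTGG, those of the Y box, in capitals. The windows are chr17:34092289-34092348 for H2-Oa, chr17:34238801-34238860 for H2-Ob, chr17:34287859-34287918 (minus strand) for H2-Aa and chr17:34305761-34305820 for H2-Eb1.
H2-Oa: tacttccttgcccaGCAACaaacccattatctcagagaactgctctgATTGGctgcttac
H2-Ob: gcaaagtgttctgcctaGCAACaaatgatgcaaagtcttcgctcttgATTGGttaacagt
H2-Aa: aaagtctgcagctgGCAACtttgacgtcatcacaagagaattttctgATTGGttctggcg
H2-Eb1: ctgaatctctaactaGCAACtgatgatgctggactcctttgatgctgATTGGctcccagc

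In these windows GCAAC began 33 bases before ATTGG in H2-Oa and H2-Aa, 30 before it in H2-Ob and 32 before it in H2-Eb1. ATTGG itself began 43 bases before the start in H2-Oa, 57 in H2-Ob, 48 in H2-Aa and 59 in H2-Eb1. GCAAC followed by ATTGG at 25 to 40 bases, searched on both strands, was found in 4 of the 8 windows of class II genes and in 0.794% of 32851 promoter windows. ATTGG, with or without GCAAC, was in 37.4% of them and GCAAC in 35.2%. H2-DMa has 2 windows, of which one held GCAAC without ATTGG and the other ATTGG without GCAAC. The genes for the beta chains of H2-DM are near copies of each other and are shown for their likeness, at chr17:34153083-34153142 for H2-DMb1 and chr17:34145112-34145171 for H2-DMb2, with ATTGG in capitals and no GCAAC before it.
H2-DMb1: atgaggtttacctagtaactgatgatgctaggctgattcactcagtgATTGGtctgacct
H2-DMb2: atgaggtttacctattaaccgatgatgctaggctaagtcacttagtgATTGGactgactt

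Some reads cannot be given to 1 gene. Of the 50-base words in H2-DMb1 transcripts, 22.7% also occur in H2-DMb2, and 21.2% of those of H2-DMb2 occur in H2-DMb1, so counts of both are uncertain. The libraries keep no strand, and on the opposite strand Brd2 covers 10.4% of the exon bases of H2-DMa, BC051537 22.8% of those of H2-Oa and Dexi 3.45% of those of Ciita. H2-Ab1, H2-Eb1, Cd74 and H2-Ob shared no such word with another gene. Levels below are CPM (counts relative to the library total) with TMM scaling, and CPM per kilobase of exon where genes are compared with each other.

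Library totals ran from 2528049 to 3106026 counts in KO mTEChi, 1602125 to 3231079 in WT mTEChi, 1639231 to 3938588 in KO mTEClo and 1628778 to 3883437 in WT mTEClo. Replicates 1 and 2 of WT mTEChi, KO mTEClo and WT mTEClo had under 2000000 counts and are called shallow here, and KO mTEChi had none. These 6 libraries stood apart for several class II genes, so results that rest on them are given with and without them. Aire averaged 29.3 ± 11.6 CPM in KO mTEChi and 818 ± 56.0 CPM in WT mTEChi, and 2.74 ± 3.53 CPM in KO mTEClo and 69.2 ± 33.4 CPM in WT mTEClo (SD, n = 4, 7, 4 and 8). Epcam, the epithelial marker of the sort, averaged 224 ± 16.2 CPM in KO mTEChi and 244 ± 37.2 CPM in WT mTEChi, and 249 ± 12.5 CPM in KO mTEClo and 254 ± 34.1 CPM in WT mTEClo.

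Per kilobase, Cd74 was the most abundant class II gene in each of the 4 groups. It reached 515 ± 49.9 CPM per kb in KO mTEChi, 433 ± 71.3 in WT mTEChi, 379 ± 121 in KO mTEClo and 287 ± 80.9 in WT mTEClo. H2-Eb1, H2-Ab1, H2-Aa and H2-DMb2 followed in that order in every group, and in every library each stood above the next gene of that order. Below H2-DMb2 the groups differed in order. In KO mTEChi H2-Oa came next at 114 ± 11.6 CPM per kb, above Ciita at 101 ± 18.4 and H2-DMb1 at 80.0 ± 11.2. In WT mTEChi Ciita (56.5 ± 8.63) and H2-DMb1 (54.2 ± 3.80) came before H2-Oa (41.8 ± 12.3), and Ciita was above H2-DMb1 in 4 of 7 libraries, so these neighbours did not separate. H2-Ob stood last in all 4 groups, at 51.2 ± 2.77 CPM per kb in KO mTEChi, 24.0 ± 2.27 in WT mTEChi, 6.78 ± 0.60 in KO mTEClo and 2.95 ± 0.69 in WT mTEClo. In KO mTEChi its neighbour H2-DMa, at 55.4 ± 8.57, was above it in 2 of 4 libraries.

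**Figure D1:**
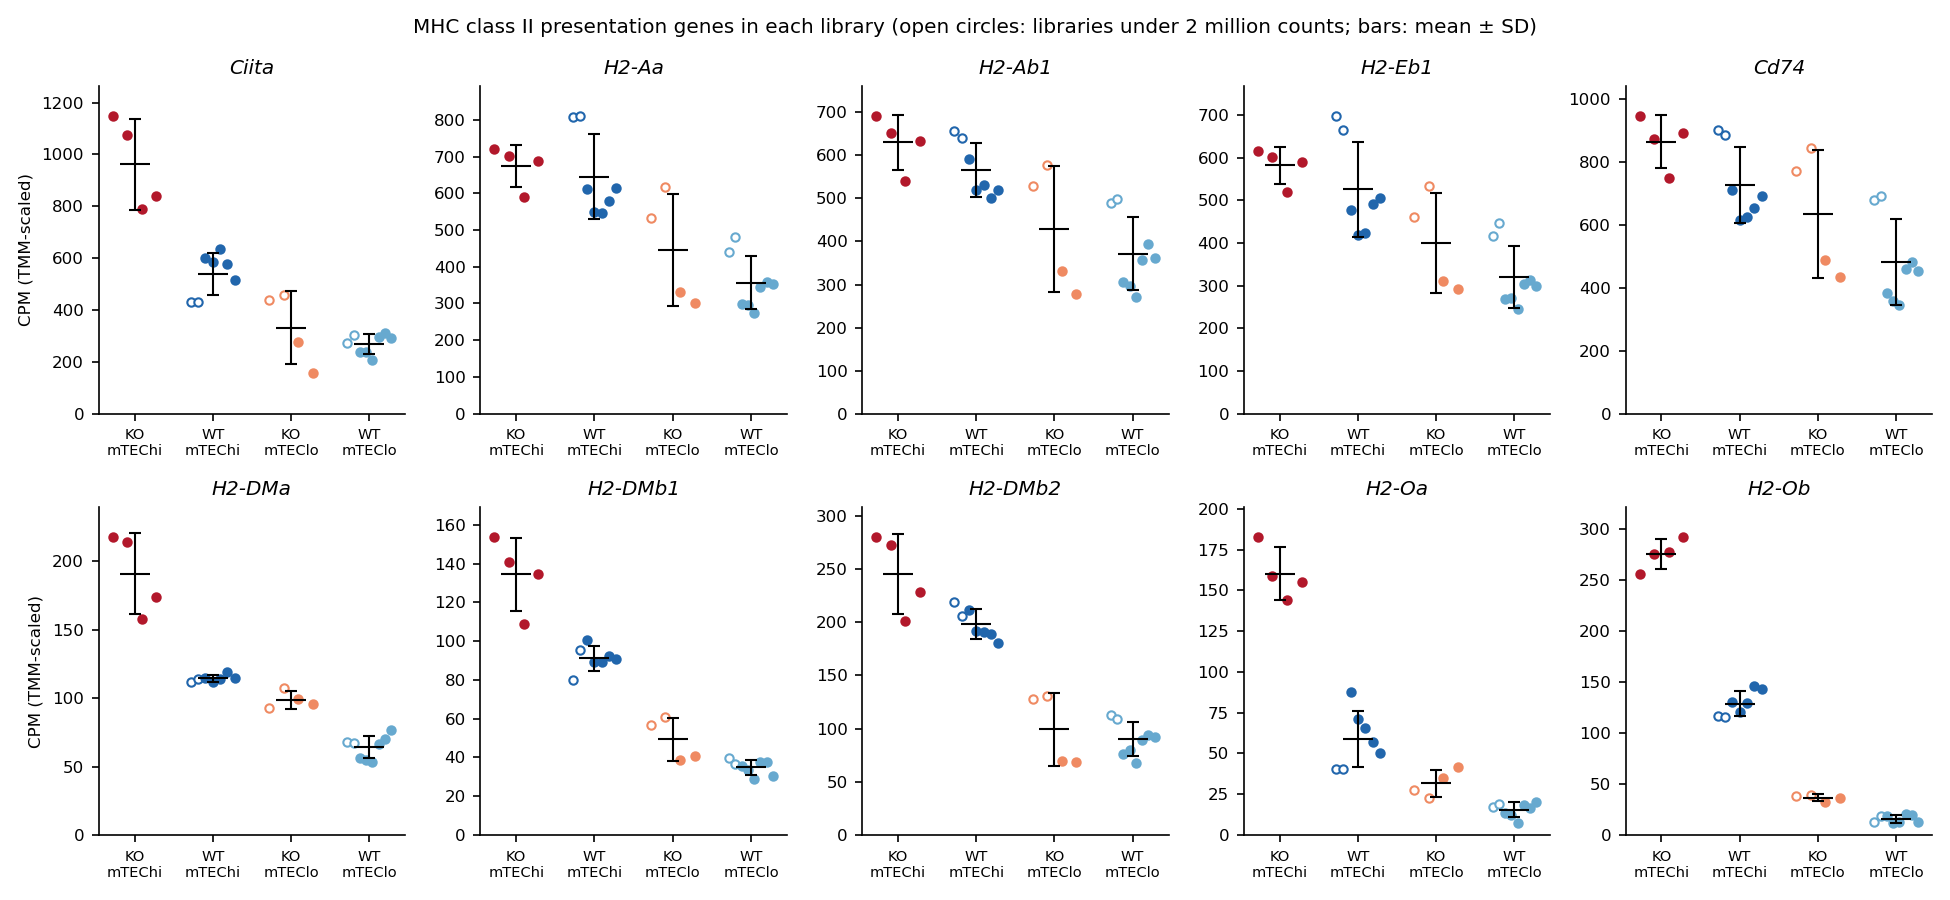
TMM-scaled CPM of the 10 class II genes in each library, by group, with open circles for shallow libraries (under 2000000 counts) and bars for the mean ± SD. Every KO mTEChi library lies above every WT mTEChi library for Ciita, H2-DMa, H2-DMb1, H2-Oa and H2-Ob, while for H2-Aa and H2-Eb1 the highest WT mTEChi values are open circles.

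In mTEChi, loss of Aire went with higher RNA of the class II coactivator, of both chains of H2-DO and of 2 chains of H2-DM. Ciita, H2-Oa, H2-Ob, H2-DMa and H2-DMb1 rose in KO mTEChi against WT mTEChi, by 1.44-fold to 2.75-fold. For each of them every KO library was above every WT library. How many of all genes separate in this way was not counted, here or in mTEClo. The surface chains H2-Aa, H2-Ab1 and H2-Eb1, Cd74 and H2-DMb2 did not pass over all libraries. No log2 change was below 0 over all libraries, though that of H2-Aa, at 0.0049, changed sign with the scaling. By edgeR's quasi-likelihood test, 5 of 10 genes were thus higher and 0 of 10 lower at an adjusted p under 0.05. Over all 19310 genes tested 25.7% were higher and 28% lower in KO mTEChi. The median log2 change of the 10 genes was 0.40, against -0.01 over all genes tested. In bulk RNA, more cells with a gene on and more RNA per cell cannot be told apart.

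Ciita measured 1149, 1073, 789 and 839 CPM in KO mTEChi (replicates 1 to 4), against a lowest of 429, a median of 576 and a highest of 636 CPM in WT mTEChi. The groups did not overlap, and within KO mTEChi the 5-week libraries were the higher pair. The log2 change was 0.87 ± 0.21 (SE; adjusted p = 0.0012). Dexi, the neighbour that overlaps Ciita on the opposite strand, was also higher, at 206 ± 22.7 CPM in KO mTEChi and 109 ± 6.26 CPM in WT mTEChi (log2 change 0.92 ± 0.10, adjusted p = 2.1e-08), and its part in the Ciita counts was not tested.

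The 2 chains of H2-DO, the brake on H2-DM, showed the largest log2 changes among the 10 genes. H2-Oa, the alpha chain, measured 183, 159, 144 and 155 CPM in KO mTEChi, against a lowest of 40.2, a median of 57.1 and a highest of 87.8 CPM in WT mTEChi. Its log2 change was 1.46 ± 0.20 (adjusted p = 9.7e-07). In WT mTEChi the low end was formed by the 2 shallow libraries. BC051537, on the strand opposite H2-Oa, averaged 5.01 ± 1.39 CPM in KO mTEChi and 1.98 ± 1.21 CPM in WT mTEChi (log2 change 1.33 ± 0.42, adjusted p = 0.0089), and it was also higher in KO mTEClo, by 2.81 ± 0.73 on the log2 scale (adjusted p = 0.0066). Its part in the H2-Oa counts was not tested. H2-Ob, the beta chain, measured 256, 275, 278 and 292 CPM in KO mTEChi, against a lowest of 116, a median of 129 and a highest of 147 CPM in WT mTEChi. Its groups lay well apart, with a log2 change of 1.06 ± 0.11 (adjusted p = 4.3e-09).

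Among the chains of H2-DM, H2-DMa (alpha) measured 218, 214, 158 and 174 CPM in KO mTEChi, against a lowest of 112, a median of 114 and a highest of 119 CPM in WT mTEChi. The 7 WT libraries were nearly equal, and the KO libraries spread more widely above them, the 5-week pair highest (log2 change 0.75 ± 0.10, adjusted p = 3.6e-07). Brd2, which overlaps H2-DMa on the opposite strand, averaged 324 ± 23.8 CPM in KO mTEChi and 325 ± 18.4 CPM in WT mTEChi. H2-DMb1 (beta) measured 154, 141, 109 and 134 CPM in KO mTEChi, against a lowest of 79.9, a median of 91.0 and a highest of 101 CPM in WT mTEChi (log2 change 0.52 ± 0.11, adjusted p = 0.00031). H2-DMb2, the near copy of H2-DMb1, measured 280, 273, 201 and 229 CPM in KO mTEChi, against a lowest of 181, a median of 192 and a highest of 219 CPM in WT mTEChi. Its groups overlapped and it did not pass (log2 change 0.28 ± 0.15, adjusted p = 0.13).

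The surface chains and Cd74 overlapped between the groups. H2-Aa averaged 676 ± 57.9 CPM in KO mTEChi and 646 ± 115 CPM in WT mTEChi (log2 change 0.0049 ± 0.17, adjusted p = 0.98). H2-Ab1 averaged 630 ± 63.9 CPM in KO mTEChi and 566 ± 63.3 CPM in WT mTEChi (0.11 ± 0.18, adjusted p = 0.62). H2-Eb1 averaged 582 ± 42.8 CPM in KO mTEChi and 526 ± 112 CPM in WT mTEChi (0.07 ± 0.16, adjusted p = 0.75). For H2-Aa and H2-Eb1 the highest WT libraries, replicates 1 and 2, stood above all KO libraries. Cd74, the invariant chain, averaged 866 ± 83.8 CPM in KO mTEChi and 727 ± 120 CPM in WT mTEChi (0.18 ± 0.19, adjusted p = 0.45). Both groups were sorted within the same gate on class II protein, so these RNA levels are compared within a fixed range of surface protein.

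The result for H2-Aa, H2-Ab1, H2-Eb1, Cd74 and H2-DMb2 turned on the shallow libraries. WT mTEChi replicates 1 and 2 held 808 and 812 CPM of H2-Aa, while the other 5 WT mTEChi libraries ran from 546 to 615 CPM. They held 698 and 665 CPM of H2-Eb1 against 418 to 506 in the others, and 904 and 887 CPM of Cd74 against 617 to 710. Without the 6 shallow libraries, 10 of 10 genes were higher in KO mTEChi, where 23.5% of the genes tested were higher. The log2 changes were then 0.21 ± 0.09 for H2-Aa (adjusted p = 0.043), 0.25 ± 0.10 for H2-Ab1 (0.035), 0.29 ± 0.08 for H2-Eb1 (0.0039), 0.39 ± 0.10 for Cd74 (0.0017) and 0.35 ± 0.11 for H2-DMb2 (0.0070). The 2 WT mTEChi libraries left out are also those of 4 weeks, so depth and age cannot be told apart there. They are the highest of their group for H2-Aa, H2-Ab1, H2-Eb1 and Cd74, so leaving them out by itself raises these changes. The next 2 fits drop or adjust for the same 2 libraries and are not separate results. A term for the 6 shallow libraries also gave 10 of 10, against 25.5% of all genes. Male libraries of 5 weeks alone, 2 of KO and 3 of WT mTEChi, gave 10 of 10, against 22.1% of all genes. With age as a term 6 of 10 were higher, against 21.9% of all genes, with H2-DMb2 added at 0.49 ± 0.17 (adjusted p = 0.016). H2-Aa, H2-Ab1, H2-Eb1 and Cd74 then had log2 changes of 0.29 to 0.45 and did not pass (adjusted p = 0.19, 0.15, 0.096 and 0.088). The 5 genes that rose over all libraries kept their direction and passed in these 4 fits, with Ciita between 0.76 and 0.97 on the log2 scale.

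**Figure D2:**
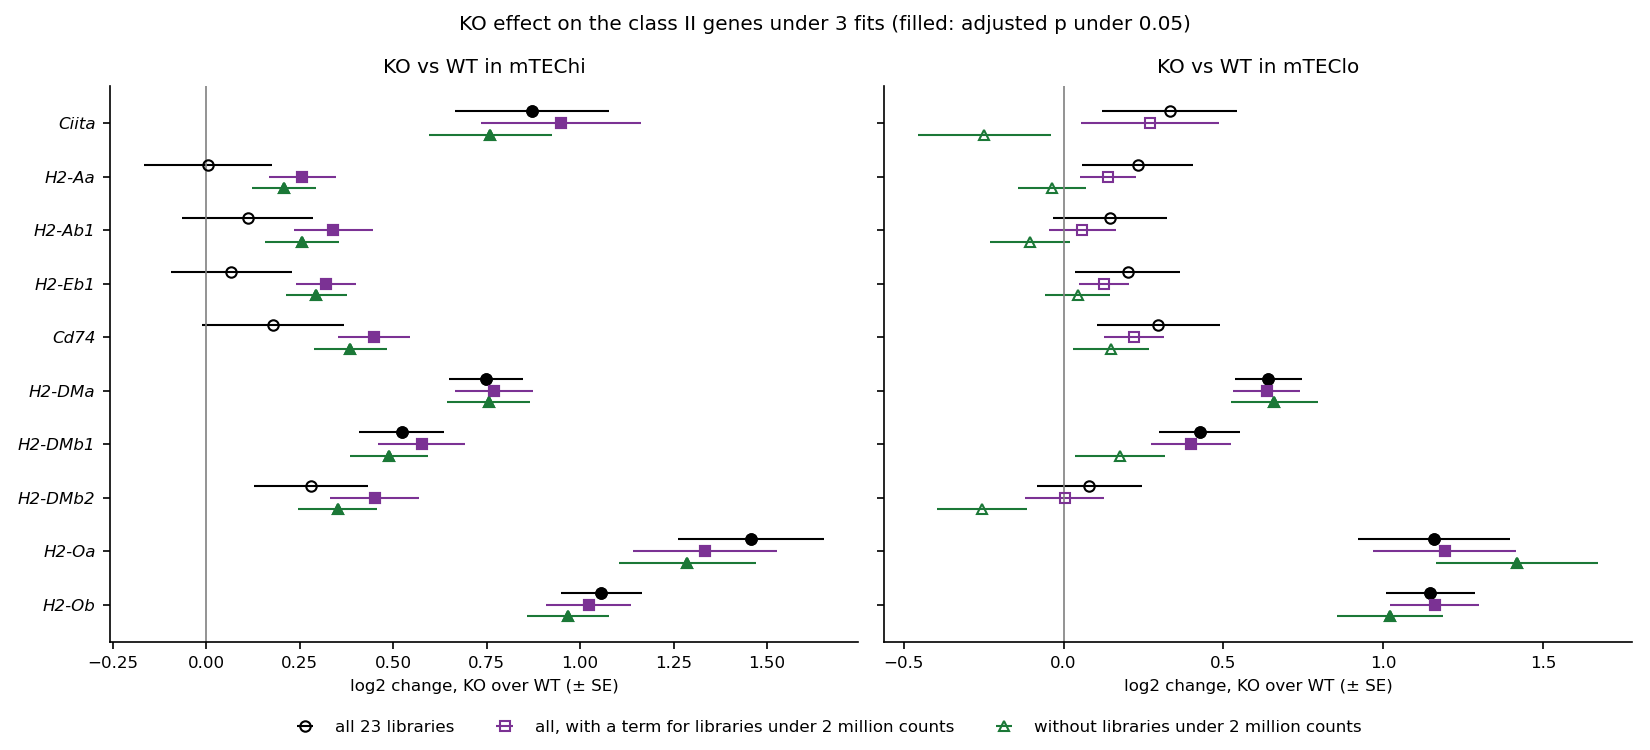
Log2 change of each class II gene in KO over WT (x axis, ± SE) in mTEChi (left) and mTEClo (right), in 3 fits that treat the shallow libraries differently, with filled symbols for an adjusted p under 0.05. H2-Aa in mTEChi moves to 0.26 with the term and 0.21 without the libraries, and Ciita in mTEClo to -0.25 without them, while H2-Ob stays near 1 in both gates.

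In mTEClo, H2-DO and 2 chains of H2-DM were again higher without Aire, while Ciita and the surface chains did not pass. H2-Oa, H2-Ob, H2-DMa and H2-DMb1 rose in KO mTEClo against WT mTEClo, 4 of 10 genes, and 0 of 10 fell. Over all genes tested 12% were higher and 9.69% lower in KO mTEClo. The median log2 change of the 10 genes was 0.31, against 0.01 over all genes tested.

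H2-Ob measured 38.4, 39.4, 32.2 and 35.9 CPM in KO mTEClo, against a lowest of 12.1, a median of 15.8 and a highest of 20.7 CPM in WT mTEClo. The groups did not overlap (log2 change 1.15 ± 0.14, adjusted p = 7.3e-07). H2-Oa measured 27.6, 22.5, 34.9 and 41.8 CPM in KO mTEClo, against a lowest of 7.38, a median of 17.01 and a highest of 20.4 CPM in WT mTEClo. Here too no KO library fell within the WT range, though the gap was small (log2 change 1.16 ± 0.24, adjusted p = 0.0010). With age as a term it was 0.63 ± 0.28 (adjusted p = 0.19), and in male libraries of 5 weeks alone 0.43 ± 0.37 (adjusted p = 0.55), where WT mTEClo had 1 library.

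H2-DMa measured 92.6, 108, 99.5 and 95.4 CPM in KO mTEClo, against a lowest of 53.7, a median of 67.1 and a highest of 76.8 CPM in WT mTEClo. All KO libraries were above all WT libraries (log2 change 0.64 ± 0.11, adjusted p = 5.8e-05). H2-DMb1 measured 56.8, 60.7, 38.7 and 40.8 CPM in KO mTEClo, against a lowest of 28.8, a median of 36.2 and a highest of 39.6 CPM in WT mTEClo. The 2 high KO libraries were the shallow ones, and another lay inside the WT range (log2 change 0.43 ± 0.13, adjusted p = 0.017). Its log2 change was 0.34 ± 0.14 without KO replicate 1 (adjusted p = 0.078), 0.31 ± 0.13 without KO replicate 2 (adjusted p = 0.090) and 0.18 ± 0.14 without the 6 shallow libraries (adjusted p = 0.40). Then 3 of 10 genes were higher in KO mTEClo, against 11.1% of all genes, namely H2-DMa at 0.66 ± 0.14, H2-Oa at 1.42 ± 0.25 and H2-Ob at 1.02 ± 0.17.

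For the other 6 genes the KO mTEClo libraries split by depth. Ciita measured 437, 457, 275 and 157 CPM in KO mTEClo, against a lowest of 207, a median of 281 and a highest of 311 CPM in WT mTEClo. Replicates 1 and 2, shallow and of 5 weeks, were above the WT range, and replicate 4, of 6 weeks, was below it (log2 change 0.33 ± 0.21, adjusted p = 0.27). Without replicate 4 it was 0.56 ± 0.16 (adjusted p = 0.016), and without the 6 shallow libraries -0.25 ± 0.21 (adjusted p = 0.44). Cd74 averaged 809 CPM in the 2 shallow KO libraries and 687 CPM in the 2 shallow WT libraries. In deeper libraries it averaged 462 CPM in the 2 of KO mTEClo and ran from 346 to 484 CPM in the 6 of WT mTEClo. H2-Aa likewise averaged 575 CPM in shallow KO and 462 CPM in shallow WT libraries, and 317 CPM in deeper KO and 321 CPM in deeper WT libraries. H2-Eb1, H2-Ab1, H2-Aa and Cd74 had log2 changes between 0.14 and 0.30 over all libraries, with adjusted p between 0.28 and 0.60, and H2-DMb2 had 0.08 ± 0.16. Male libraries of 5 weeks alone gave 9 of 10 genes higher in KO mTEClo, against 4.53% of all genes, but both KO libraries of that fit are shallow and its 1 WT library is not. In KO mTEClo depth and age cannot be told apart, since the shallow pair was of 5 weeks and the other of 6. WT mTEClo held shallow and deeper libraries of 4 weeks. There H2-Aa averaged 462 CPM in the 2 shallow and 291 CPM in the 3 deeper ones, and Cd74 687 and 363 CPM. In the 3 deeper WT mTEClo libraries of 5 weeks H2-Aa averaged 352 CPM and Cd74 466 CPM. The cause of this split was not tested.

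Whether the change without Aire differed between the gates was tested directly, as the log2 change in mTEChi minus that in mTEClo. By edgeR the count was 0 of 10 in either direction, as it was with DESeq2 and with limma, against 10.8% of all genes higher and 14% lower. At an unadjusted p under 0.05 it was also 0 of 10. Ciita came nearest, at 0.54 ± 0.28 (adjusted p = 0.18). Without the 6 shallow libraries, 2 of 10 genes changed more in mTEChi, against 11.7% of all genes, namely Ciita at 1.01 ± 0.25 (adjusted p = 0.0078) and H2-DMb2 at 0.61 ± 0.16 (adjusted p = 0.0079). H2-Ob, at -0.09 ± 0.17, and H2-DMa, at 0.11 ± 0.14, had similar changes in both gates within that error.

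Between the gates, the genes of H2-DO and H2-DM and Ciita were higher in mTEChi than in mTEClo in both genotypes, and Cd74 was higher in WT. The gates were sorted on class II protein, so the surface chains are described without a test and the other 7 genes are read with that in mind. In KO mTEChi and KO mTEClo, H2-Aa averaged 676 and 446 CPM, H2-Ab1 630 and 429 CPM, and H2-Eb1 582 and 400 CPM. In WT mTEChi and WT mTEClo, H2-Aa averaged 646 and 357 CPM, H2-Ab1 566 and 372 CPM, and H2-Eb1 526 and 320 CPM. In KO, 6 of the 7 other genes were higher in mTEChi, against 29.2% of all genes. In WT it was 7 of 7, against 36.7% of all genes. H2-Ob had the largest log2 difference, 2.93 ± 0.13 in KO (adjusted p = 4.6e-17) and 3.02 ± 0.11 in WT (adjusted p = 3.8e-20), with no overlap of the gates in either genotype. H2-Oa differed by 2.28 ± 0.23 in KO and 1.98 ± 0.19 in WT, and H2-DMb1 by 1.48 ± 0.13 in KO and 1.38 ± 0.10 in WT. Ciita differed by 1.55 ± 0.23 in KO and 1.01 ± 0.17 in WT. Cd74 had the smallest differences of the 7, 0.45 ± 0.21 in KO (adjusted p = 0.071) and 0.57 ± 0.15 in WT (adjusted p = 0.0023), and its gates overlapped in both genotypes. In KO its value rested on the shallow KO mTEClo libraries, and it was 0.55 ± 0.23 without replicate 1 (adjusted p = 0.045), 0.57 ± 0.21 without replicate 2 (adjusted p = 0.028) and 0.89 ± 0.12 without all 6 (adjusted p = 8.0e-07). With age as a term it was 0.48 ± 0.19 (adjusted p = 0.037), and in male libraries 0.40 ± 0.22 (adjusted p = 0.13). In male libraries of 5 weeks the Cd74 difference in KO was 0.15, where both KO mTEClo libraries are shallow. Over the fits without 1 library it ran from 0.29 to 0.57, with adjusted p from 0.028 to 0.26. These comparisons share their mTEChi libraries with the comparison of KO and WT.

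**Figure D3:**
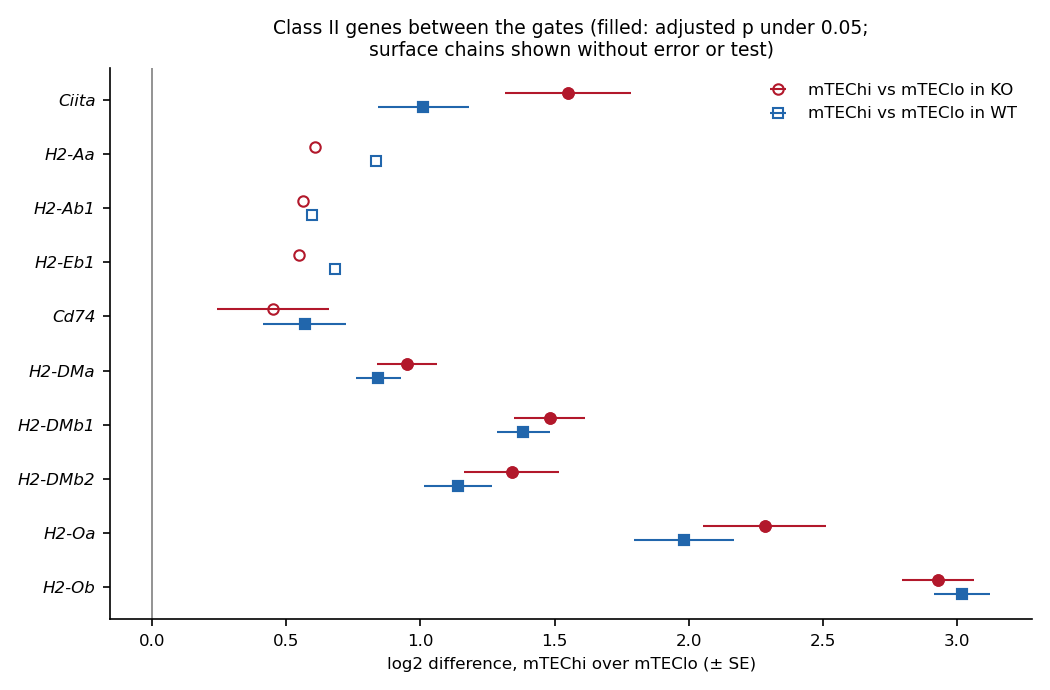
Log2 difference between mTEChi and mTEClo (x axis, ± SE) for each class II gene in KO (circles) and in WT (squares), with filled symbols for an adjusted p under 0.05 and no test for the surface chains. H2-Ob lies near 3 in both genotypes and Cd74 at 0.45 in KO and 0.57 in WT.

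Ratios within a library describe how the parts of the route stood to each other, as sums of CPM per kb, and carry no test. The genes of H2-DO relative to those of H2-DM had a median ratio of 0.597 in KO mTEChi (0.543 to 0.682) and 0.343 in WT mTEChi (0.241 to 0.404). In mTEClo it was 0.267 in KO (0.165 to 0.398) and 0.160 in WT (0.106 to 0.183). The groups did not overlap in mTEChi and did in mTEClo. The overlap in mTEClo came from a shallow KO library of 5 weeks. The 2 shallow libraries of KO mTEClo, of 5 weeks, had 0.200 and 0.165, against 0.137 and 0.163 in those of WT, of 4 weeks. The 2 deeper ones of KO, of 6 weeks, had 0.334 and 0.398. They lay above the 0.106 to 0.183 of the 6 deeper ones of WT, of 4 and 5 weeks. At 5 weeks WT mTEClo had 0.183, 0.161 and 0.180, so KO and WT overlapped at that age. Depth and age cannot be told apart in KO mTEClo. The H2-DM genes relative to the surface chains had a median of 0.380 in KO mTEChi (0.356 to 0.405) and 0.330 in WT mTEChi (0.248 to 0.347), again apart, and of 0.237 in KO mTEClo and 0.239 in WT mTEClo. Ciita relative to the surface chains ran from 0.120 to 0.155 in KO mTEChi and from 0.0547 to 0.117 in WT mTEChi. Cd74 relative to the surface chains ran from 0.696 to 0.727 in KO mTEChi and from 0.651 to 0.663 in WT mTEChi. The 2 shallow WT mTEChi libraries, at 0.651 and 0.656, lay within the range of the other 5, unlike their CPM. In mTEClo it ran from 0.760 to 0.789 in KO and from 0.643 to 0.779 in WT. There the 2 shallow WT libraries, at 0.779 and 0.751, lay above the 6 deeper ones, which ran from 0.643 to 0.708, so in deeper libraries KO and WT did not overlap.

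**Figure D4:**
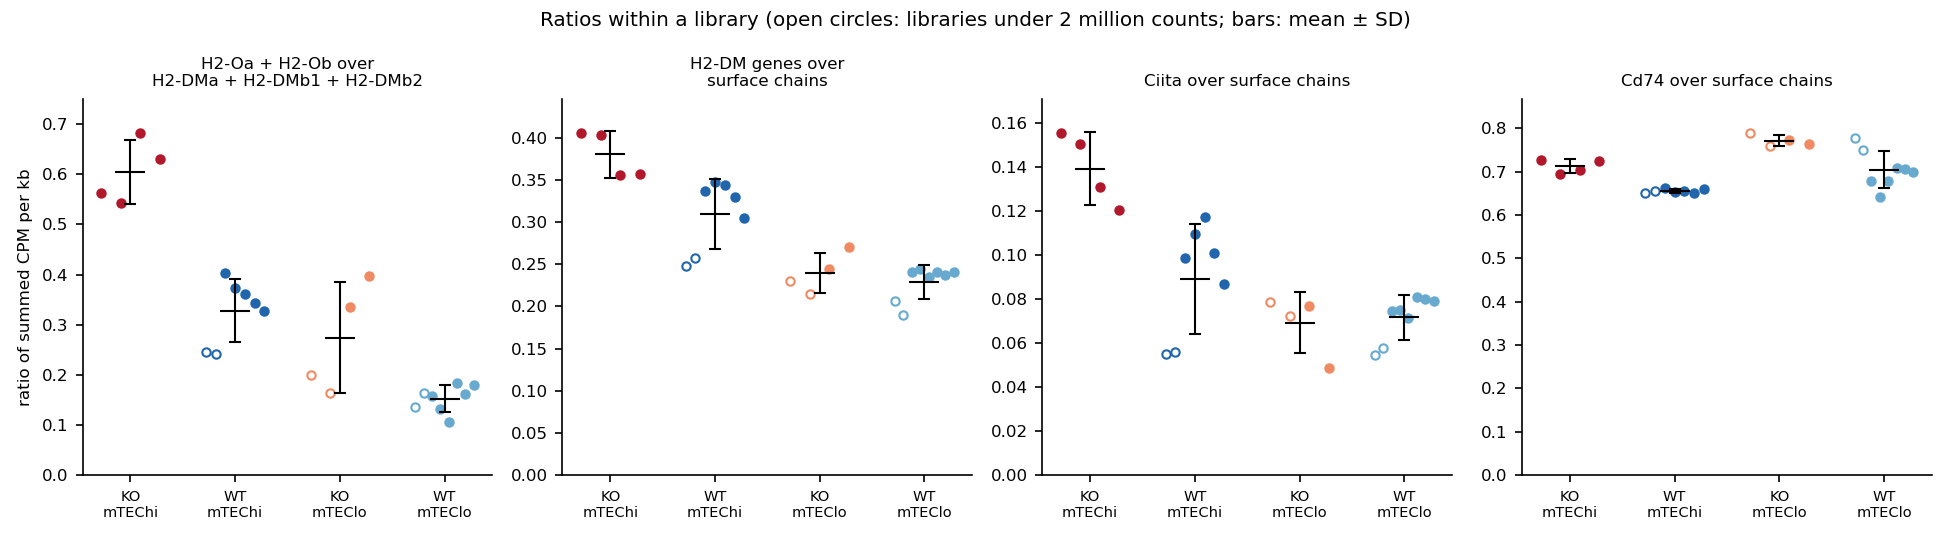
Ratios of summed CPM per kb within each library for 4 pairs of class II gene groups, by group, with open circles for shallow libraries (under 2000000 counts) and bars for the mean ± SD. H2-DO over H2-DM lies at 0.543 or more in all KO mTEChi libraries and at 0.404 or less in all WT mTEChi libraries.

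Beside the 10 genes, several for the factors at class II promoters were higher in KO mTEChi. The list of 11 genes also holds Nlrc5, for a factor of class I promoters, which the counts include. Of the 11, 6 were higher and 1 lower in KO mTEChi, against 25.7% and 28% of all genes, with a median log2 change of 0.29. In KO mTEClo 2 were higher and 2 lower, near the 12% and 9.69% of all genes, with a median of 0.06. For 3 of the 11 the change was higher in mTEChi than in mTEClo by the test of the difference, against 10.8% of all genes. For 1 of these, Rfx5, it did not pass without the 6 shallow libraries (0.40 ± 0.15, adjusted p = 0.059, against 0.41 ± 0.15 and 0.041 over all). Rfx5 and Rfxank encode subunits of RFX, the complex on the X box. Rfx5 averaged 192 ± 9.94 CPM in KO mTEChi and 113 ± 13.1 CPM in WT mTEChi (log2 change 0.79 ± 0.10, adjusted p = 3.1e-07). Rfxank averaged 34.1 ± 4.18 CPM in KO mTEChi and 16.8 ± 3.99 CPM in WT mTEChi (1.08 ± 0.15, adjusted p = 1.2e-06). The histone acetyltransferase gene Crebbp, a coactivator with Ciita, rose by 0.67 ± 0.07 on the log2 scale in KO mTEChi (adjusted p = 7.0e-09), while Kat2b, another acetyltransferase gene, fell by 0.55 ± 0.13. In KO mTEClo Rfxank rose by 0.53 ± 0.15 and Rfx5 by 0.38 ± 0.11 on the log2 scale. Without the 6 shallow libraries Rfx5 had 0.31 ± 0.13 (adjusted p = 0.088). Nlrc5, the counterpart of Ciita for class I promoters, averaged 442 ± 17.6 CPM in KO mTEChi and 347 ± 27.0 CPM in WT mTEChi, but 337 ± 75.1 CPM in KO mTEClo and 496 ± 48.4 CPM in WT mTEClo. Its changes, 0.35 ± 0.11 and -0.56 ± 0.11, differed between the gates by 0.91 ± 0.15 (adjusted p = 2.9e-05). Creb1, for a protein of the X box, fell by 0.30 ± 0.09 in KO mTEClo and did not pass without the 6 shallow libraries (adjusted p = 0.084).

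Genes of the interferon-gamma route, the classical inducer of Ciita, moved in both directions in KO mTEClo. Of the 8 tested that are reported here, 4 were higher and 0 lower in KO mTEChi, against 25.7% and 28% of all genes, with 0 lower also at an unadjusted p under 0.05 by edgeR. Ifng, the ligand itself, was too low to be tested over all libraries, at 0.640 ± 0.742 CPM in KO mTEChi and 2.66 ± 0.716 CPM in WT mTEChi, with every KO library below every WT library. Without the 6 shallow libraries it was tested and was lower (log2 change -2.09 ± 0.65, adjusted p = 0.011). In KO mTEClo 1 was higher and 2 lower, against 12% and 9.69% of all genes. By the test of the difference 4 of 8 had a higher change in mTEChi than in mTEClo, against 10.8% of all genes. Irf1, Irf2 and Usf1, for factors that bind the Ciita promoter that responds to interferon-gamma, rose in KO mTEChi by 0.45 ± 0.07, 0.58 ± 0.08 and 0.72 ± 0.11 on the log2 scale (adjusted p = 4.8e-06, 1.4e-06 and 3.6e-06). Socs1, an inhibitor of the route, rose by 0.82 ± 0.21 in KO mTEChi and 1.14 ± 0.24 in KO mTEClo on the log2 scale. The receptor chain gene Ifngr1 fell in KO mTEClo by 0.52 ± 0.09. Jak2, for a receptor kinase, fell in KO mTEClo by 0.49 ± 0.14 and did not pass without the 6 shallow libraries (adjusted p = 0.21).

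Among 17 genes for proteases and related proteins of peptide processing, 6 were higher and 3 lower in KO mTEChi, against 25.7% and 28% of all genes. In KO mTEClo 6 were higher and 0 lower, against 12% and 9.69%. Ctss, the cathepsin that trims Cd74 in many antigen-presenting cells, averaged 206 ± 4.57 CPM in KO mTEChi and 139 ± 17.2 CPM in WT mTEChi (log2 change 0.54 ± 0.10, adjusted p = 7.5e-05). Ctsl, the cathepsin known for that step in cortical thymic epithelium, fell to 26.9 ± 7.68 CPM in KO mTEChi, against 76.8 ± 9.01 CPM in WT mTEChi (-1.55 ± 0.15, adjusted p = 8.9e-10). In mTEClo Ctsl averaged 286 ± 35.2 CPM in KO and 264 ± 31.3 CPM in WT and did not pass, and its changes differed between the gates by -1.62 ± 0.18 (adjusted p = 1.2e-07). The lysosomal protease genes Tpp1 and Ctsh rose in KO mTEChi by 0.84 ± 0.10 and 0.63 ± 0.11 on the log2 scale, and Ctsf and Ctsk fell by 0.32 ± 0.12 and 1.36 ± 0.34. Ctsk went the other way in KO mTEClo, at 1.42 ± 0.33. Prss16, the thymus-specific serine protease known from cortical epithelium, averaged 97.6 ± 27.1 CPM in KO mTEClo and 39.6 ± 3.94 CPM in WT mTEClo (1.32 ± 0.16, adjusted p = 1.1e-06), and it rose in KO mTEChi by 0.83 ± 0.17. Ctsz rose by 0.38 ± 0.10 in KO mTEChi and 0.51 ± 0.10 in KO mTEClo, where it did not pass without the 6 shallow libraries (adjusted p = 0.066).

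Of 11 genes for the traffic and turnover of class II molecules, 5 were higher and 1 lower in KO mTEChi, against 25.7% and 28% of all genes. In KO mTEClo 1 was higher and 0 lower, against 12% and 9.69%. March1, for a ubiquitin ligase that removes class II from the surface, fell to 1.02 ± 0.30 CPM in KO mTEChi, against 6.04 ± 1.904 CPM in WT mTEChi, both low levels (log2 change -2.74 ± 0.42, adjusted p = 3.9e-06). Its relative March8 was higher, at 128 ± 4.92 CPM in KO mTEChi and 92.7 ± 11.7 CPM in WT mTEChi (0.51 ± 0.09, adjusted p = 2.1e-05). Lamp1, a lysosomal membrane protein, and Cd9, a tetraspanin, rose in KO mTEChi by 0.64 ± 0.07 and 0.40 ± 0.09 on the log2 scale. Cd83, which in thymic epithelium keeps class II on the surface by opposing March8, averaged 6.88 ± 3.24 CPM in KO mTEClo and 1.75 ± 0.62 CPM in WT mTEClo (1.94 ± 0.28, adjusted p = 8.5e-06). In mTEChi it averaged 74.2 ± 2.42 CPM in KO and 50.3 ± 7.97 CPM in WT (0.62 ± 0.14, adjusted p = 0.00062). Other class II loci included 2 that passed. H2-Pb averaged 10.7 ± 2.45 CPM in KO mTEChi and 1.50 ± 0.48 CPM in WT mTEChi (2.94 ± 0.39, adjusted p = 3.3e-07). H2-Eb2, a neighbour of H2-Eb1, averaged 126 ± 45.9 CPM in KO mTEClo and 53.5 ± 10.0 CPM in WT mTEClo (1.13 ± 0.17, adjusted p = 2.3e-05), but 543 ± 23.8 CPM in KO mTEChi and 538 ± 72.4 CPM in WT mTEChi, a difference between the gates of -1.17 ± 0.22 (adjusted p = 0.00025). Without the 6 shallow libraries its change in mTEClo was 0.67 ± 0.13 (adjusted p = 0.00052) and the difference between the gates -0.60 ± 0.15 (adjusted p = 0.0044).

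**Figure D5:**
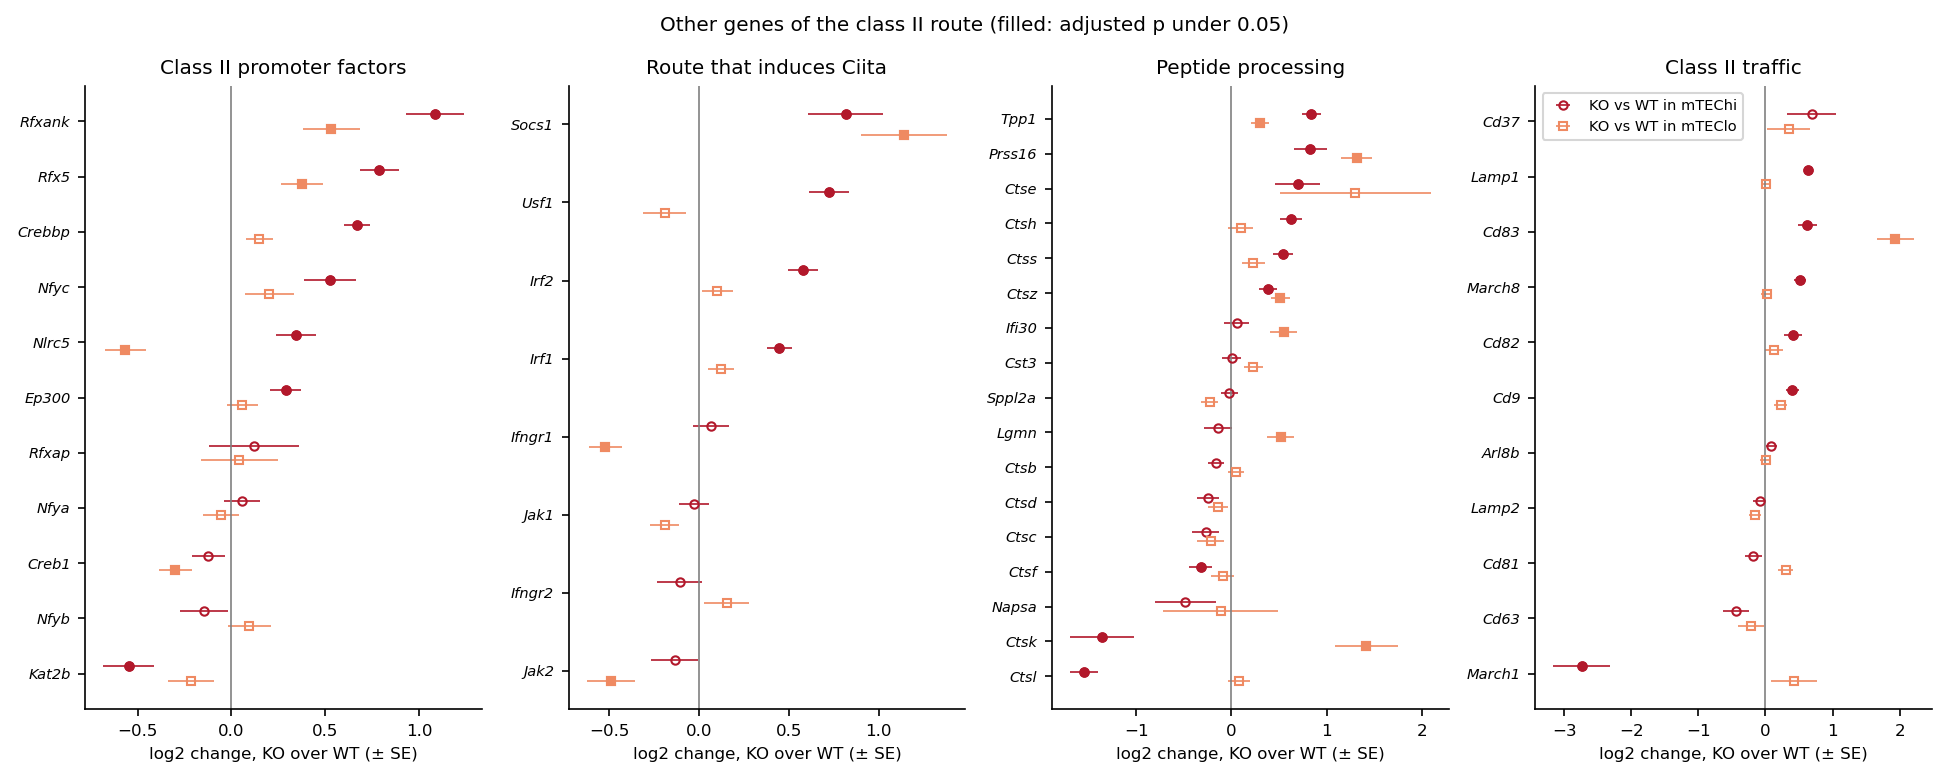
Log2 change in KO over WT (x axis, ± SE) for other genes of the class II route in mTEChi (circles) and mTEClo (squares), in 4 lists, with filled symbols for an adjusted p under 0.05. Nlrc5 lies at 0.35 in mTEChi and -0.56 in mTEClo, and Ctsl at -1.55 in mTEChi and 0.07 in mTEClo.

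B cells, dendritic cells and macrophages also express class II genes, so their markers are given beside these results, and their part in the results was not tested. The pan-leukocyte gene Ptprc (CD45), used to exclude such cells, fell to 6.09 ± 0.65 CPM in KO mTEChi, against 22.5 ± 9.49 CPM in WT mTEChi. In KO mTEChi 5 of the 9 B cell markers tested were higher and 3 lower, against 25.7% and 28% of all genes. In KO mTEClo 5 were higher and 1 lower, against 12% and 9.69% of all genes. The summed level of all 10, tested or not, ran from 287 to 369 CPM in KO mTEChi and from 194 to 255 CPM in WT mTEChi. Cd79a, which defines B cells, was at 3.04 ± 0.835 CPM in KO mTEChi and 2.10 ± 1.30 CPM in WT mTEChi. Blk rose to 87.3 ± 21.7 CPM in KO mTEChi, against 18.9 ± 2.71 CPM in WT mTEChi. Pax5, Ighm, Cd79b and Ighd were also higher there, and Cd22 and Ms4a1 were lower. Ighm averaged 31.6 ± 4.83 CPM in KO mTEClo and 8.21 ± 2.55 CPM in WT mTEClo. The top B cell marker in WT mTEChi, Fcer2a, fell to 39.3 ± 9.18 CPM in KO mTEChi, against 73.9 ± 15.4 CPM. Of the 7 dendritic cell markers tested 2 were higher and 3 lower in KO mTEChi, against 25.7% and 28% of all genes. The sum of all 10 ran from 295 to 340 CPM in KO mTEChi and from 187 to 229 CPM in WT mTEChi. The most abundant of them in WT mTEChi was Zbtb46 (210 ± 23.9 CPM in KO mTEChi and 112 ± 13.3 CPM in WT mTEChi), while Siglech was at 0 in KO mTEChi.

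Of the 10 macrophage markers tested 2 were higher and 8 lower in KO mTEChi, against 25.7% and 28% of all genes. Among the higher was Lyz2 with 290 ± 18.6 CPM in KO mTEChi and 192 ± 22.4 CPM in WT mTEChi. The sum of all 11 ran from 417 to 497 CPM in KO mTEChi and from 416 to 493 CPM in WT mTEChi. Of the 5 thymocyte markers tested 0 were higher and 4 lower in KO mTEChi, against 25.7% and 28% of all genes. The sum of all 10 ran from 39.7 to 51.4 CPM in KO and from 68.0 to 86.2 CPM in WT. Cd4, the most abundant in WT mTEChi, averaged 28.8 ± 3.95 CPM in KO and 26.5 ± 2.68 CPM in WT. In KO mTEClo the sums ran from 71.5 to 104 CPM for B cells, 106 to 137 for dendritic cells and 111 to 154 for macrophages, against 52.4 to 74.7, 90.9 to 128 and 50.2 to 80.1 CPM in WT mTEClo. At 0 in KO mTEClo were Clec9a and Siglech of dendritic cells, C1qc of macrophages and Ptcra of thymocytes. Cortical epithelial markers also moved. In KO mTEChi 3 of 8 were higher and 3 lower, against 25.7% and 28% of all genes. In KO mTEClo 7 of 8 of these markers were higher, against 12%. Their summed level ran from 1067 to 1176 CPM in KO mTEChi and from 786 to 898 CPM in WT mTEChi, and from 499 to 705 CPM in KO mTEClo and from 298 to 375 CPM in WT mTEClo, with none at 0. Tbata, the most abundant of them in WT mTEChi, averaged 126 ± 6.76 CPM in KO mTEClo and 53.6 ± 15.3 CPM in WT mTEClo. Of the 12 mTEC markers, Aire among them, 2 were higher and 3 lower in KO mTEChi, against 25.7% and 28% of all genes. In KO mTEClo 0 were higher and 1 lower, against 12% and 9.69%. Without the 6 shallow libraries 4 were higher and 4 lower in KO mTEChi, where 23.5% of all genes were higher. In KO mTEClo 2 were then higher and 3 lower, where 11.1% of all genes were higher. The share of all genes lower without the shallow libraries is not given here, so the counts lower have nothing to be set against.

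The surface chains and Cd74 varied together with many abundant genes outside the class II route. Among 12429 genes with a mean of at least 10 CPM, those most like the mean of H2-Aa, H2-Ab1, H2-Eb1 and Cd74 over the 23 libraries, by Pearson's r of log2 CPM, were Eif5a (0.95), Ywhaz (0.95), Tmsb4x (0.95), Cs (0.95) and Txn1 (0.94). After each group's mean was taken out, the likest were Mir6236, Fcgbp, H2-K1, Eef2 and Hsp90ab1, all at 0.98. The libraries share the split at 2000000 counts, which moves with these values. By the same measure of deviations H2-DMb2 had an r of 0.91, H2-DMb1 0.67, Ciita 0.53, H2-DMa 0.45, H2-Ob 0.17 and H2-Oa -0.08.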

How the data were processed

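RNA of sorted mTECs was sequenced in 23 libraries. The deposited table of whole-number counts per gene was made by the authors with fastp 0.20.0, STAR 2.7.3a, SAMtools 1.9, Picard 2.21.1 and HTSeq 0.11.2 on mm10 or GRCm38, per the submitters' processing notes. The annotation used for counting is not given in the sources used here. The deposited normalized table (signal) holds 20236 genes, each count divided by 1 factor per library, as the values show, and served in an alternative with limma. Genes were named from GENCODE for GRCm38, which held all 53402 identifiers.

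Counts were scaled with TMM and tested with edgeR 4.0.16 (quasi-likelihood, R 4.3.3) in 1 fit over all 4 groups with sex as a term. Genes needed to pass filterByExpr at a minimum count of 10, and p-values were adjusted over 19310 genes (Benjamini-Hochberg, threshold 0.05). All tests were two-sided. CPM divide a count by the TMM-scaled library total, so they move with the make-up of a library, and totals of 1602125 to 3938588 limit the precision of low genes. The scripts were tested on simulated data. Alternatives were 14 other settings, among them DESeq2 1.42.0, limma 3.58.1, other scalings, age, depth and a replicate block, and 23 fits without 1 library each. The members and the 13 lists (124 of 125 symbols matched) were chosen with earlier results of these data known. A gene of the interferon-gamma route is not reported here, and its list's counts leave it out. Named genes were all members, of each other list of the route up to 3 genes a direction and gate with the smallest p past the threshold, and of each marker list the most abundant in WT mTEChi and those at 0. Epcam, the B cell markers named other than Fcer2a, and the genes that overlap a member were added after their values were seen. Ratios and promoter words carry no test.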

Additional observations from a re-analysis of the deposited data

Results flagged for a closer look

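H2-DMa in WT mTEChi replicate 6 stood apart from the other libraries of its group at 119 CPM, where the other 6 lay between 112 and 115 CPM. Of 40 sets of a gene and a group checked in this way it was the 1 set with such a library, and chance alone gives about 1 in 20.

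For 19 other genes of the class II route the change without Aire differed between the gates by edgeR's test of the difference itself. Tested were 11 promoter factor genes, 8 of the interferon-gamma route, 17 of proteases and related proteins, 11 of traffic and 3 other loci. Over all genes tested 10.8% were higher and 14% lower by that test. The difference is given here as the log2 change in mTEChi minus that in mTEClo. Among genes of promoter factors it was 0.91 for Nlrc5, 0.52 for Crebbp and 0.41 for Rfx5. In the interferon-gamma route it was 0.91 for Usf1, 0.59 for Ifngr1, 0.48 for Irf2 and 0.33 for Irf1. Among proteases and related proteins it was 0.54 for Tpp1, 0.53 for Ctsh, -0.49 for Ifi30, -0.66 for Lgmn, -1.62 for Ctsl and -2.78 for Ctsk. In traffic it was 0.63 for Lamp1, 0.49 for March8, -0.48 for Cd81, -1.31 for Cd83 and -3.17 for March1. For H2-Eb2 it was -1.17, and -0.60 without the 6 shallow libraries. Without them the difference did not pass for Rfx5 (0.40, adjusted p = 0.059), Tpp1 (0.36, adjusted p = 0.055) and Ifi30 (-0.23, adjusted p = 0.31).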

How the results depend on the processing

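Over 14 other settings and 23 fits that left out 1 library each, Ciita, H2-DMa, H2-DMb1, H2-Oa and H2-Ob stayed higher and past the threshold in KO mTEChi, and H2-DMa and H2-Ob in KO mTEClo. In KO mTEChi 10 genes were higher, against 5, with a term for shallow libraries, without them and in male libraries of 5 weeks, and leaving out 1 library gave 5 in each fit. In KO mTEClo male libraries of 5 weeks gave 9, and leaving out 1 library gave 3 to 5. The difference between the gates gave 2 higher genes without shallow libraries, against 11.7% of all genes, and 0 without any 1 library. In male libraries of 5 weeks that difference ran from -0.50 for H2-Aa to 0.95 for H2-Oa on the log2 scale. That fit has 1 WT mTEClo library, which is assumed to vary like the others. Between the gates, leaving out 1 library gave 6 to 7 of 7 genes in KO and 7 in WT. The replicate block gave 5, 4 and 0 genes higher in KO mTEChi, in KO mTEClo and in the difference. Same-numbered KO and WT libraries had correlations of -0.118 to -0.0147 in mTEChi and 0.00544 to 0.0939 in mTEClo. Across the gates they ran from 0.0588 to 0.137 in KO, with 2 of 4 pairs over 0.1. In WT they ran from -0.193 to 0.202, with 4 of 7. In KO 5 of 8 libraries were most like the library of their own number in the other gate, and in WT 5 of 14. The labels do not say whether equal numbers pair libraries, and these values cannot settle it. With the block Cd74 between the gates in KO was 0.51 ± 0.13 (adjusted p = 0.0015), against 0.45 ± 0.21 (adjusted p = 0.071) without it.

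Signs turned only for log2 changes that did not pass over all libraries. H2-Aa in KO mTEChi, at 0.0049, was -0.046 with RLE factors, -0.048 with DESeq2, -0.12 with upper quartile factors, -0.013 with no filter, -0.070 in male libraries, -0.073 in a fit on the 2 groups, -0.0011 with the replicate block, and -0.052 to 0.063 without 1 library. With upper quartile factors, which put the median of all genes at -0.12, H2-Ab1 was -0.010 and H2-Eb1 -0.056 there, and H2-Eb1 was -0.014 in male libraries and -0.016 in a fit on the 2 groups. In KO mTEClo without shallow libraries H2-Aa was -0.037, H2-Ab1 -0.10, Ciita -0.25 and H2-DMb2 -0.26, and without 1 library H2-Ab1 ran from -0.043 to 0.30 and H2-DMb2 from -0.085 to 0.22. In the difference between the gates, the term for and the removal of shallow libraries gave 0.12 and 0.25 for H2-Aa, 0.28 and 0.36 for H2-Ab1, 0.19 and 0.25 for H2-Eb1 and 0.23 and 0.24 for Cd74. Their removal gave -0.13 for H2-Oa. Male libraries of 5 weeks gave -0.00039 for H2-DMb1, -0.018 for H2-DMb2 and 0.015 for H2-Ob, and upper quartile factors -0.00074 for H2-DMb1. Without 1 library H2-Ab1 ran from -0.20 to 0.13, H2-Eb1 from -0.26 to 0.024, Cd74 from -0.27 to 0.038 and H2-DMb1 from -0.017 to 0.19. The cause was not tested. For the other lists, the fit without shallow libraries was an alternative chosen after seeing the data. In it the interferon-gamma route had 1 lower gene in KO mTEChi (Ifng, not tested over all libraries). In KO mTEClo 1 promoter factor and 1 protease were lower, and 2 traffic genes were higher and 1 lower. Of all genes 11.1% were higher in KO mTEClo in that fit, and the share lower is not given here.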
